A study of Mus musculus with 4 samples.

Results

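The globin genes encode the protein chains of haemoglobin, and 7 of them were followed here in the livers of mice born small (microsomic, M) and of control (C) littermates. They were chosen by gene name: the embryonic *Hba-x*, *Hbb-bh1* and *Hbb-y* and the adult *Hba-a1*, *Hba-a2*, *Hbb-b1* and *Hbb-b2*. The array carried 8 probes for them (*Hbb-y* had 2), of 55681 non-control probes with 36161 gene names. RNA from whole liver had been hybridized to 4 Agilent arrays read in 1 colour, 1 each for control females (CF), microsomic females (MF), control males (CM) and microsomic males (MM). All 4 samples were labelled C57BL/6J at embryonic day 20 with no allele or treatment named, whereas the methods of the study describe newborn C57BL/6 N mice. Microsomic pups had weights at the bottom of the distribution of the colony for their gender, and the condition arose without any genetic or dietary cause being imposed. Whether an array held RNA of a single animal or of a pool is not given in the sources used here.

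A haemoglobin molecule is built from alpha-type and beta-type chains, each holding a haem group. In the mouse the genes lie in an alpha cluster and a beta cluster, and their expression switches with age: the first red cells, made in the yolk sac, use the embryonic chains zeta (*Hba-x*), beta-h1 (*Hbb-bh1*) and epsilon-y (*Hbb-y*), and red cells made later in the fetal liver use the adult chains. Late in gestation the liver still produces red cells, while its hepatocytes take over the metabolic work of the organ.

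The labelled tissue was checked first. All 11 hepatocyte markers, among them albumin (*Alb*) and alpha-fetoprotein (*Afp*), and all 11 red cell membrane genes with a probe were well above background on each array. The same held for the 8 globin probes. The methods describe replicate experiments for each group, whereas 1 array per group was analysed here. Without a replicate array, the 2 values of a pair were compared without a test, and the number of arrays limits the precision of each value. As a measure of technical scatter alone, the SD of a difference between single spots on 2 arrays was taken from probes printed at 10 spots. It came to 0.46 (log2) in MF vs CF and 0.48 in MM vs CM at the brightness of the embryonic probes, and to 0.52 and 0.34 at that of the adult probes. At the adult brightness it rests on only 5 or 6 probes per array, against 87 to 100 at the embryonic brightness. In bulk tissue, fewer cells of a type and less RNA per cell cannot be told apart. All 4 arrays lay on 1 slide, with M and C in different columns and the genders in different rows, so that position on the slide and group cannot be told apart.

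The probes are 60 bases long, and those of 4 genes are printed whole to show the sequence behind each signal. They are written 5′ to 3′ as the array annotation gives them. The *Hba-x* probe lay at chr11:32177668-32177727 on the plus strand of mm9 and the *Hba-a1* probe at chr11:32183955-32184014, farther along the alpha cluster. The *Hbb-y* probe shown lay at chr7:111000448-111000507 on the minus strand, and the *Hbb-b2* probe had no position in the annotation.
Hba-x (A_51_P204053): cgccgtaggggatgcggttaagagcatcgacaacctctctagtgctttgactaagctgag
Hbb-y (A_55_P1967481): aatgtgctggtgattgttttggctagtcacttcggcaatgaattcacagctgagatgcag
Hba-a1 (A_55_P1962303): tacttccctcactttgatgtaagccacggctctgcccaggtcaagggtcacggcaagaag
Hbb-b2 (A_55_P2038540): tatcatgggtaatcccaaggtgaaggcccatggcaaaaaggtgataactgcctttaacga

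Of 2 other probes a stretch of 30 bases is shown, with the polyadenylation signal AATAAA in capitals, which places these probes at the very end of the transcript. The second *Hbb-y* probe lay at chr7:111000268-111000327 (minus strand) and the *Hba-a2* probe at chr11:32197245-32197304 (plus strand) of mm9.
Hbb-y (A_55_P1967478): cacatcatgtttAATAAAgatcatccttcc
Hba-a2 (A_55_P1962299): tcttggtctttgAATAAAgcctgagtagga

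The probes of *Hbb-b1* (chr7:110961105-110961164) and *Hbb-bh1* (chr7:110990209-110990268) were on the minus strand. No member probe shared a run of 20 bases with another member probe (0 pairs). The transcripts themselves are close copies, above all *Hba-a1* and *Hba-a2*, so a signal may come from both members of such a pair and the gene behind an adult probe is uncertain. The accession printed with the *Hbb-b1* probe belongs to *Hbb-bt* in the RefSeq table of GRCm38.p6. The adult beta genes differ between mouse haplotypes. Promoter windows of GRCm38.p6 were found for *Hbb-bt* and *Hbb-bs*, while *Hbb-b1* and *Hbb-b2* are the names of the pair in the other haplotype. Values under the names *Hbb-b1* and *Hbb-b2* are therefore readings of the probes so labelled. Which gene gave the signal is uncertain, above all for *Hbb-b2*, whose probe had no position in mm9.

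The embryonic probes were dim. All log2 values here are relative to the 75th percentile of the array. The embryonic signals lay below it except for 1 *Hbb-y* probe on MF, which was just above, and no spot exceeded 0.166% of the saturation value of the scan. The probe of *Hba-x*, the embryonic alpha-type chain, read −0.73 on CF, −0.31 on MF, −1.40 on CM and −2.19 on MM. Both females were therefore above both males, with M above C in females and below it in males.

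*Hbb-y*, the embryonic beta-type chain epsilon-y, gave the same order of arrays on both of its probes. The probe at the end of the transcript read −0.29 on CF, 0.07 on MF, −1.03 on CM and −1.35 on MM. The probe A_55_P1967481 read −0.67 on CF, −0.17 on MF, −1.62 on CM and −2.16 on MM. From highest to lowest, both probes and *Hba-x* ran MF, CF, CM, MM. *Hbb-bh1*, which encodes the embryonic chain beta-h1, did not follow this order. It read −0.09 on CF, −0.85 on MF, −1.42 on CM and −0.88 on MM, so that the control arrays were its extremes and the M arrays stood close together between them.

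**Figure D1:**
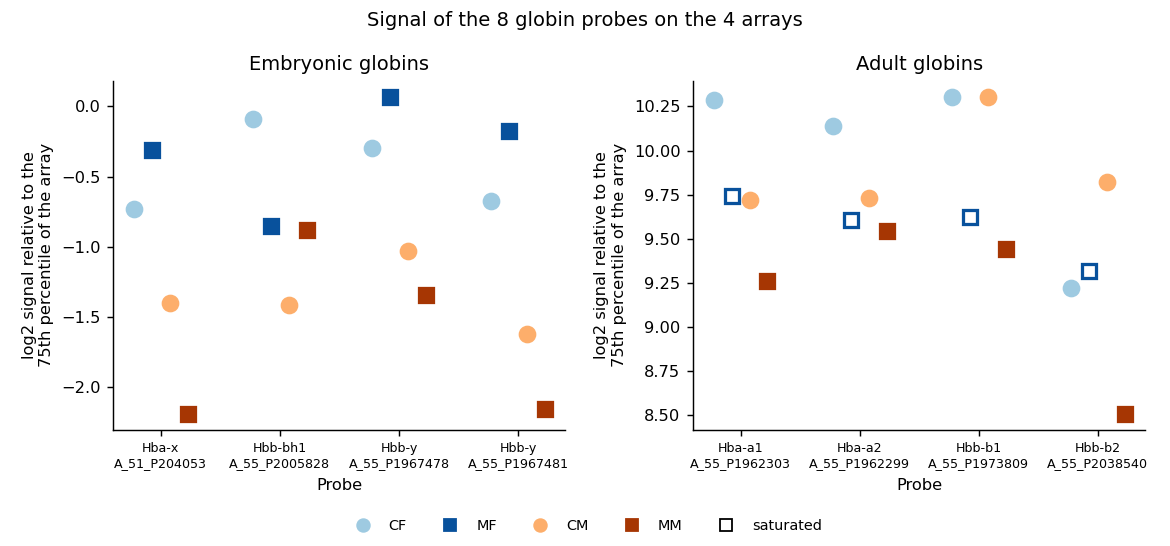
Signal of each globin probe (x axis) on each array as log2 relative to the 75th percentile of the array (y axis), embryonic globins on the left and adult globins on the right (separate y scales). Each point is 1 array, and open squares are saturated spots. Hba-x and both Hbb-y probes run from MF at the top to MM at the bottom, and all 4 adult probes are saturated on MF alone.

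In females, the M array exceeded the C array for *Hba-x* by 0.42 (log2), and for *Hbb-y* by 0.36 and 0.50. The spot-to-spot SD was 0.46, above the first 2 of these values and close to the last. *Hbb-bh1* went the other way, with MF minus CF at −0.76, which is CF 1.69-fold over MF and the only member past 1.5-fold in MF vs CF. That is 1 of 8 globin probes, against 41.4% of all 34975 probes compared (19.1% higher and 22.3% lower in MF). For 3 adult probes no fold could be formed in this comparison, as given below. Among the 4 embryonic probes alone the count is 1 as well, a smaller share than among all probes.

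In males the signs turned for each embryonic probe. MM minus CM was −0.79 for *Hba-x* (CM 1.73-fold over MM), −0.31 and −0.54 for *Hbb-y*, and 0.54 for *Hbb-bh1*. Past 1.5-fold were *Hba-x* and 2 adult probes, all lower in MM. These are 3 of 8 globin probes, beside 41.2% of 36587 probes in either direction, 17.9% higher and 23.3% lower in MM. The difference of these differences between females and males was not tested, since each gender had 1 array per group.

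**Figure D2:**
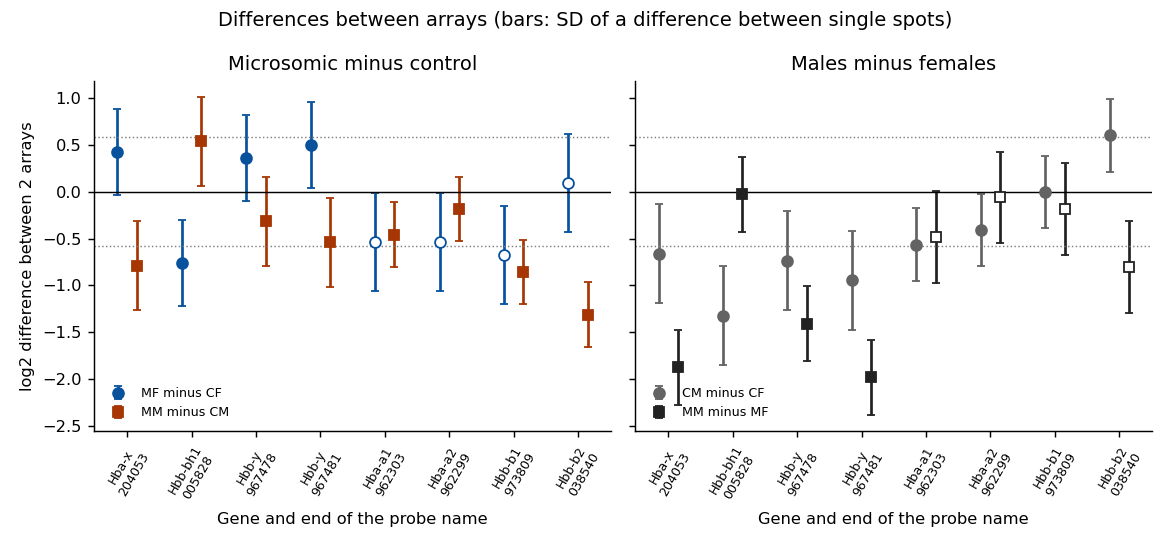
log2 differences between 2 arrays (y axis) for each globin probe (x axis), M minus C in each gender on the left and males minus females in each group on the right. Bars are the SD of a difference between single spots of the same brightness, open points are pairs with a saturated array, and dotted lines mark 1.5-fold. M minus C of the 3 embryonic genes has opposite signs in females and males, and of the embryonic probes only Hbb-bh1 in MM minus MF lies near 0 on the right.

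The male values also depended on a correction made by the scanner software. It divides the background-subtracted signal of a spot by a detrending factor fitted over the array. At the 4 embryonic probes this factor was between 0.584 and 0.791 on CM, below its range of 0.987 to 1.229 on MM, and so raised the CM signals. On the signal before detrending, MM minus CM was −0.14 for *Hba-x*, 0.74 and −0.03 for *Hbb-y*, and 1.20 for *Hbb-bh1*. Without this factor *Hba-x* and 1 *Hbb-y* probe of MM were thus nearly level with CM and the other *Hbb-y* probe was higher, whereas the higher *Hbb-bh1* of MM stood. In females all 4 probes kept their signs without the factor, but MF minus CF of *Hba-x* shrank from 0.42 to 0.10 and that of *Hbb-y* to 0.28 and 0.22.

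The embryonic globin signals were also lower on the male than on the female array of each group, with *Hbb-bh1* nearly level among microsomic mice. CM was below CF on all 4 probes and past 1.5-fold on each: by 1.58-fold for *Hba-x*, 2.51-fold for *Hbb-bh1*, and 1.67-fold and 1.93-fold for *Hbb-y*. With *Hbb-b2*, the only adult probe past that fold and higher in CM, this gave 5 of 8 globin probes, against 47.1% of all probes (27.9% higher in CM). All 4 embryonic probes (of 3 genes) were lower, while 19.1% of the 34420 probes compared were lower in CM to this degree. Among microsomic mice, MM was below MF by 3.68-fold for *Hba-x* and by 2.66-fold and 3.96-fold for *Hbb-y*, whereas *Hbb-bh1* differed by 1.02-fold. Together with *Hbb-b2* (MF at least 1.75-fold over MM, its spot being saturated), 4 of 8 probes were lower in MM past 1.5-fold, against 50.8% of all probes in either direction, 31.6% higher and 19.2% lower in MM. The MF spots of the other adult probes were saturated too, so this count of 4 is a minimum.

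In sizes, the MM minus MF differences of *Hba-x* (−1.88) and *Hbb-y* (−1.41 and −1.99) were 3 or more times the spot-to-spot SD of 0.40, while the CM minus CF differences of −0.66, −0.74 and −0.95 stood beside an SD of 0.53. The values of *Hbb-bh1* were −1.33 for CM minus CF and −0.03 for MM minus MF. Before detrending CM minus CF was larger in size, at −1.49 for *Hba-x*, −2.25 for *Hbb-bh1*, and −2.02 and −1.94 for *Hbb-y*. In a limma model of the 4 arrays with gender and M or C as terms, which leaves 1 residual degree of freedom, males differed from females by −1.27 (SE 0.47, unadjusted p = 0.0259, adjusted p = 0.462 by Benjamini-Hochberg) for *Hba-x*. For *Hbb-y* the limma estimates were −1.08 (SE 0.43, adjusted p = 0.488) and −1.47 (SE 0.45, adjusted p = 0.400), and for *Hbb-bh1* it was −0.68 (SE 0.47, adjusted p = 0.657). No globin probe passed the adjusted threshold of 0.05 (0 of 8, as 0.0% of all 25045 probes tested with limma), and 3 of 8 had an unadjusted p under 0.05, beside 9.86% of all probes. These 3 were the probe of *Hba-x* and both probes of *Hbb-y*, so *Hbb-y* counts more than once. For the adult probes the MF values in this model were saturated. Spot scatter leaves out the variation between animals and between arrays, and no embryonic globin passed the test of males against females over the 4 arrays.

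**Figure D3:**
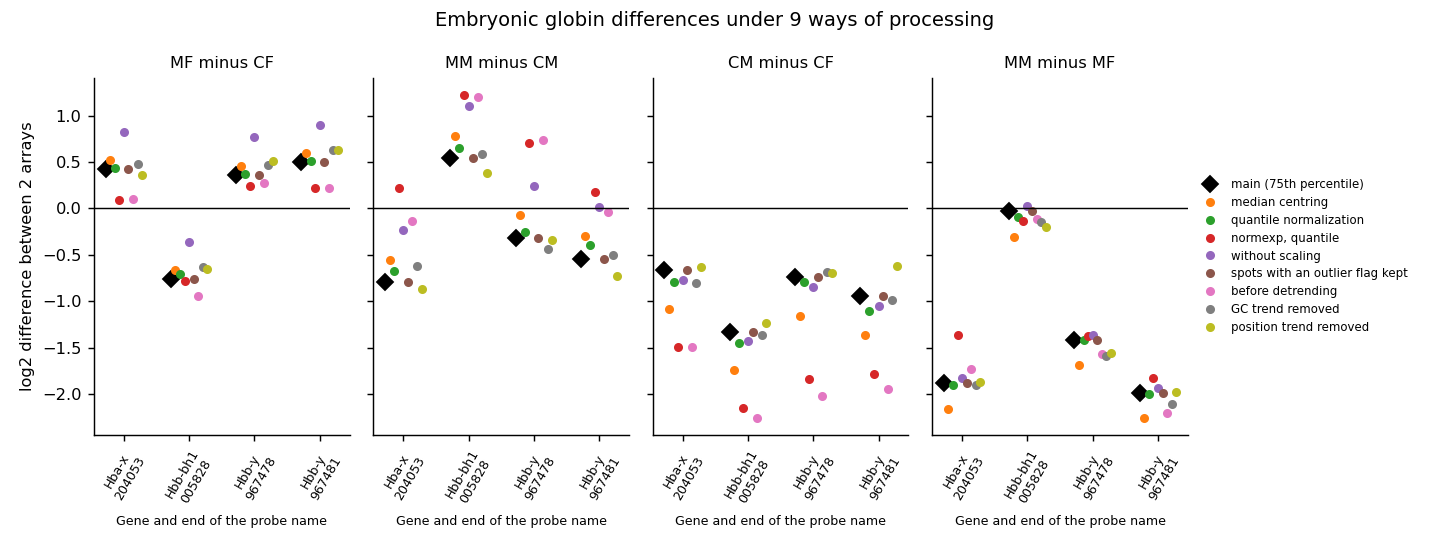
log2 difference between 2 arrays (y axis) for the 4 embryonic globin probes (x axis) under 9 ways of processing the signal, 1 panel per comparison; diamonds are the values as reported and circles the alternatives. CM minus CF is below 0 throughout, from −2.25 to −0.62, while MM minus CM of Hba-x and Hbb-y lies on both sides of 0.

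For M vs C across both genders, the limma estimates of the embryonic probes were near 0: −0.18 (SE 0.47) for *Hba-x*, −0.11 (SE 0.47) for *Hbb-bh1*, and 0.02 (SE 0.43) and −0.02 (SE 0.45) for *Hbb-y*. None of the 8 globin probes passed (0 of 8, with 0 at an unadjusted p under 0.05), where 0.0% of all probes passed after Benjamini-Hochberg adjustment and 4.49% before it. The 4 adult probes entered the model with saturated MF values as if measured, so for them it cannot decide. A model of 4 arrays averages over values of opposite sign here, so it says nothing of the genders taken singly.

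The adult globins were close to the upper limit of the scan. All 4 probes were saturated on MF, where the mean spot signal was 97.3% to 99.8% of the saturation value, and none was saturated on another array. The probe of *Hba-a1*, an adult alpha chain, reached 63.5% on CF, 99.8% on MF, 93.2% on CM and 67.1% on MM. For *Hbb-b2*, an adult beta chain, these values were 80.3%, 99.1%, 73.3% and 43.9%. On every adult probe the MF spot was the brightest in the scan before correction. Its scaled value was nevertheless not the highest for any adult probe, because the MF signal was also divided by a factor above 1 (1.015 to 1.357) and by a larger 75th percentile than on the control arrays (893, against 676 on CF and 628 on CM).

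**Figure D4:**
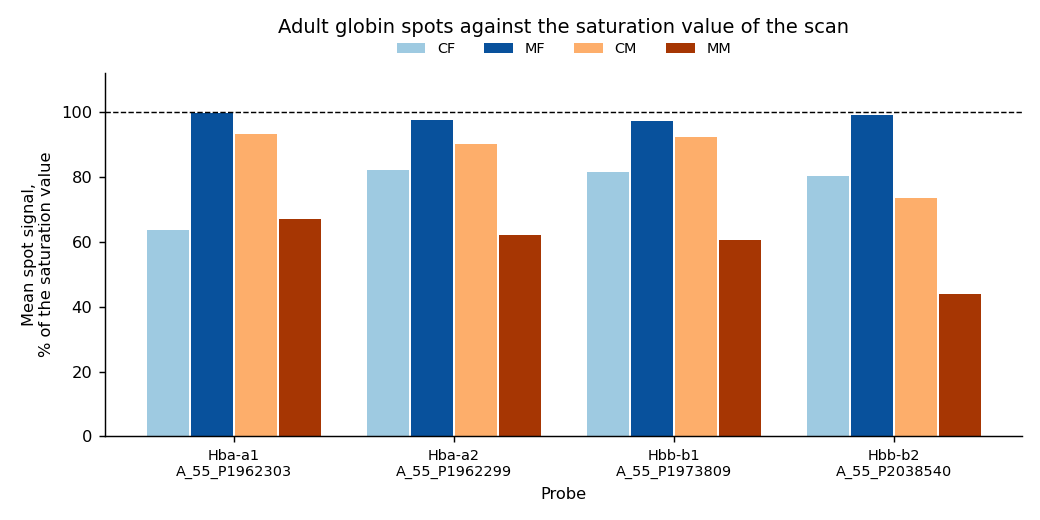
Mean spot signal of the 4 adult globin probes (x axis) as a percent of the saturation value of the scan (y axis, from 0), 1 bar per array, with the dashed line at 100%. MF bars reach at least 97.3%, and the other arrays range from 43.9% (Hbb-b2 on MM) to 93.2% (Hba-a1 on CM).

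After scaling, *Hba-a1* read 10.28 on CF, 9.74 on MF, 9.72 on CM and 9.26 on MM, and *Hba-a2*, the other adult alpha gene, read 10.14, 9.61, 9.73 and 9.54 in the same order. *Hbb-b1* read 10.30 on CF, 9.62 on MF, 10.30 on CM and 9.44 on MM. *Hbb-b2* read 9.22 on CF, 9.31 on MF, 9.82 on CM and 8.51 on MM. The MF values are lower bounds, since the spots were saturated.

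Because of this bound, no fold of MF vs CF was formed for *Hba-a1*, *Hba-a2* and *Hbb-b1*, whose bound lay below the CF value. *Hbb-b2* was at least 1.07-fold higher in MF. In males, where neither array was saturated, all 4 adult probes were lower in MM. MM minus CM was −0.46 for *Hba-a1*, −0.19 for *Hba-a2*, −0.86 for *Hbb-b1* and −1.31 for *Hbb-b2*. The beta probes were past 1.5-fold (CM 1.82-fold and 2.49-fold over MM). These 2 beta probes differed by more than the spot-to-spot SD of 0.34, which rests on few probes. The alpha genes changed sign without scaling between arrays (0.10 for *Hba-a1*, 0.37 for *Hba-a2*) and under quantile normalization (0.16 and 0.56), and were −1.06 and −1.13 before detrending. The *Hbb-b2* probe, whose gene is uncertain, was lower in MM past 1.5-fold in each of the 9 ways of processing, from −1.32 to −0.68. *Hbb-b1* kept its sign in all 9 but not its call, with −0.0857 under quantile normalization, −0.30 without scaling and −0.38 under normexp with quantile normalization. Signals this near the ceiling may be compressed, so a difference of adult globins is no measure of its size in the tissue.

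The switch itself was set as the median difference of the 4 embryonic probes minus that of the 4 adult probes. In females the medians of MF minus CF were 0.39 and −0.54, and their gap was 0.93. This gap is an upper bound, since a higher true MF value for the adult probes would shrink it. In males the medians of MM minus CM were −0.43 and −0.66, and the gap was 0.23. Before detrending the gaps were 0.29 in females and 1.51 in males. The female gap before detrending is an upper bound too. As reported, the larger gap could therefore not be assigned to a gender, while before detrending it was that of males. Neither gap had an error that could be estimated.

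The sequence before the transcription start is shown for the embryonic and adult genes that the RefSeq table holds, because these windows carry the elements through which erythroid factors act. Each is 150 bases of GRCm38.p6, 5′ to 3′ on the strand of the gene, with short motifs of promoters in capitals: CACCC, the CCAAT box, the letters GATA, and TATAA or its variant spelled ATAAA, each on either strand, with overlapping matches run together. The windows are chr11:32276450-32276599 for *Hba-x*, chr11:32283522-32283671 for *Hba-a1*, chr7:103853208-103853357 for *Hbb-y*, chr7:103813924-103814073 for *Hbb-bt* and chr7:103827929-103828078 for *Hbb-bs*.
Hba-x: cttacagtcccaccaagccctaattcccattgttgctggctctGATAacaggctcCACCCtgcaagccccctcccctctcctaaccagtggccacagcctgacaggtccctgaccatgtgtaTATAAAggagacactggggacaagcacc
Hbb-y: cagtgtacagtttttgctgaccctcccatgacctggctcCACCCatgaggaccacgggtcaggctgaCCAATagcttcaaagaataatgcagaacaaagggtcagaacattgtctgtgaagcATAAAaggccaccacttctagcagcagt
Hba-a1: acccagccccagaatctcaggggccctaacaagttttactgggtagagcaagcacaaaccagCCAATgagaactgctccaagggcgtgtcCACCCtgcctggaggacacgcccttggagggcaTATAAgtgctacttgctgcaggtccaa
Hbb-bt: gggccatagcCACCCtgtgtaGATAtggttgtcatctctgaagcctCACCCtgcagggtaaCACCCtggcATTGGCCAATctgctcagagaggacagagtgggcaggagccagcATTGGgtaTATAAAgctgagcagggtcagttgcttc
Hbb-bs: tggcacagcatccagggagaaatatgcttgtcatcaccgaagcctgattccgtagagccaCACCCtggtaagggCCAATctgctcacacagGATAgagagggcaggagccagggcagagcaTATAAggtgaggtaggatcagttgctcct

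CACCC, the letters bound by KLF1, stood once in the windows of *Hba-x* (95 bases before the start), *Hbb-y* (111), *Hba-a1* (60) and *Hbb-bs* (90), and 3 times in that of *Hbb-bt*. Of all 32851 windows of this length, 37.4% held it on either strand. CCAAT was absent from the *Hba-x* window and present in the other 4 shown, against 24.5% of all windows. The GATA letters were in the windows of *Hba-x*, *Hbb-bt* and *Hbb-bs* (35.7% of all windows), TATAA in all shown except *Hbb-y* (14.2%), and the variant ATAAA in *Hba-x*, *Hbb-y* and *Hbb-bt* (24.1%). The *Hba-a2* window was identical to that of *Hba-a1* in 147 of 147 bases at an offset of 3 bases. A match is a description of the letters and not evidence of binding. *Hbb-bh1*, *Hbb-b1* and *Hbb-b2* were not shown.

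The genes that act around the globins were compared by their brightest probe. Of all genes, 40.8% were past 1.5-fold in MF vs CF (19.8% higher and 21.0% lower in MF) and 40.8% in MM vs CM (17.7% higher and 23.1% lower in MM), and the median of all genes was −0.06 and −0.01. Of 23 regulators of globin expression, 2 were higher and 2 lower in MF, with a median of −0.04, and 3 were higher and 1 lower in MM, with a median of 0.09. Past 1.5-fold in the same direction in both genders was *Nfe2*, a subunit of the erythroid factor that binds the locus control region, higher in M by 0.79 in females and 0.72 in males. It was higher in M in all 9 ways of processing, with values as low as 0.38 in females and 0.53 in males. The master erythroid factor *Gata1* (−0.31 and −0.11) and *Klf1*, an activator of adult beta-globin (0.25 and 0.20), were within 1.5-fold in both genders. Other settings took them past it, with *Gata1* as low as −0.67 in females and *Klf1* as high as 0.65 in females and 0.76 in males. The paper lists *Gata1* as lower in microsomic females by array and by qPCR, with larger folds than the value here.

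*Bcl11a* and *Sox6* encode repressors of the embryonic beta-type genes. *Bcl11a* read 2.41 on CF, 2.71 on MF, 1.13 on CM and 1.19 on MM, with M minus C at 0.31 in females and 0.06 in males. Both females were above both males, as for *Hba-x* and *Hbb-y*. *Sox6* read 1.09 on CF, 0.64 on MF, 0.19 on CM and 0.69 on MM, and its M minus C was −0.45 in females and 0.50 in males. These are the signs of *Hbb-bh1* and the opposite of *Hba-x* and *Hbb-y*, in values without a test.

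Of 11 genes of haem synthesis, 3 were higher and 2 lower in MF, and 1 was higher and 2 lower in MM. Under quantile normalization 0 were higher and 7 lower in MF (median −0.69, against −0.04). *Cpox*, which acts late in the pathway, was higher in M in both genders, by 0.69 and 0.79. It had this sign in all 9, with values as low as 0.23 in females and 0.55 in males. *Alas2*, the erythroid enzyme of the first step, read 6.56 on CF, 7.25 on MF, 6.11 on CM and 5.87 on MM, with M minus C at 0.70 in females (−0.10 under quantile normalization) and −0.24 in males (−1.05 to 0.32 over the 9 ways of processing). Its order of arrays, MF, CF, CM, MM, was that of *Hba-x* and *Hbb-y*. *Ahsp*, the chaperone of free alpha chains, was nearly level at 8.07 on CF, 8.02 on MF, 8.11 on CM and 7.85 on MM. Over the 9 ways of processing, its M minus C ran from −0.84 to 0.35 in females and from −0.47 to 0.30 in males. Of the 8 genes for globin partners and haemoglobin clearance, 7 could be compared in MF vs CF, with 1 higher and 0 lower (0 higher and 4 lower under quantile normalization), and all in MM vs CM, with 1 higher and 1 lower.

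The red cell membrane genes had medians of −0.34 in MF vs CF (1 higher and 3 lower of 11) and −0.42 in MM vs CM (1 higher and 4 lower), which were 0.07 and 0.14 without scaling between arrays. *Sptb*, which encodes erythroid beta-spectrin, was lower in M in both genders, by −0.98 and −0.70, and by as little as −0.37 and −0.14 in other settings. *Slc4a1*, the anion exchanger band 3, had M minus C of 0.84 in females (−0.32 under normexp with quantile normalization) and −1.64 in males. The summed level of this list (log2 of the sum of the linear signals, in which bright genes weigh most) was 8.06 on CF, 8.35 on MF, 7.91 on CM and 7.11 on MM. The mean log2 level was 3.25, 3.01, 2.73 and 2.29 in the same order, highest on CF rather than MF. Both were lowest on the array where *Hba-x* and *Hbb-y* were lowest. The part of these genes in the globin differences was not tested.

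Markers of other cells moved with some comparisons too. Of 8 granulocyte markers 7 were higher in MF than in CF past 1.5-fold (median 1.0), among them *Ngp* by 2.47 and *Elane* by 1.95 (2 of 8 under quantile normalization, median 0.37), and past the same limit 0 of 8 were higher and 2 lower in MM than in CM. Of 8 macrophage markers 7 were higher in MF (median 0.79; 3 under quantile normalization) and 2 in MM (median 0.30), and *Clec4f*, a marker of Kupffer cells, was higher in M in both genders, by 0.93 and 0.63 (in males 0.0127 under normexp with quantile normalization and 0.0834 before detrending). All 16 were well above background on every array. The summed granulocyte level was 10.91 on MF against 9.86 to 10.30 on the others, and the macrophage level was 7.98 against 6.78 to 6.95. Hepatocyte markers had a median of 0.21 in MF vs CF over the 8 of 11 that could be compared (−0.49 under quantile normalization) and of −0.61 in MM vs CM, with 1 higher and 6 lower (−0.20 under quantile normalization, with 2 higher and 0 lower), and their summed level was 12.25 on MM against 12.81 to 12.90 on the others. The sums on MF, CF and CM include saturated spots and are lower bounds, while no spot of this list was saturated on MM. *Afp* differed by 0.76 in females and −0.79 in males, and *Alb* by 0.22 and −0.33, both of them bounds, since its spot was saturated on MF and CM. Megakaryocyte markers (1 of 6 higher in each gender, 0 lower) and B cell precursor markers (2 of 5 higher in MF, 2 lower in MM) completed the lists. Their part in the globin values was not tested.

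**Figure D5:**
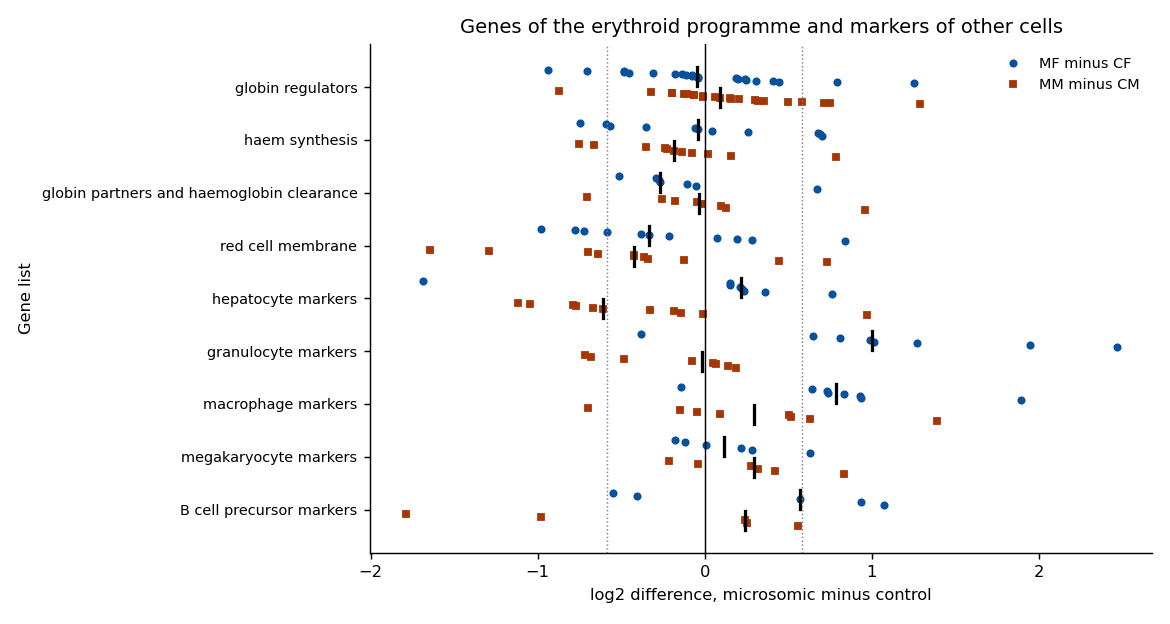
M minus C as a log2 difference (x axis) for each gene of the lists (y axis), circles for females and squares for males. Short vertical bars are list medians and dotted lines mark 1.5-fold. Granulocyte and macrophage markers lie to the right in females, with medians of 1.0 and 0.79. The lists of the erythroid programme have genes on both sides of 0, with red cell membrane medians of −0.34 in females and −0.42 in males.

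Of 10 other globin family genes listed, 5 had a probe and 4 could be compared. The theta genes *Hbq1a* and *Hbq1b*, of the alpha cluster, had M minus C of 0.07 and 0.06 in females and of −0.57 and −1.27 in males; they are near-identical copies, so their probes may share transcripts. *Hbq1b* read 1.79 on CF, 1.86 on MF, 2.69 on CM and 1.43 on MM. Cytoglobin (*Cygb*) had M minus C of −0.34 and −0.03. Myoglobin (*Mb*), the oxygen store of muscle, read 3.26 on CF and −2.82 on CM, −5.48 on MM, and was not well above background on MF, so that CF was at least 625-fold over MF. No other list gene differed as much, and *Mb* is no red cell gene.

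The genes whose pattern over the 4 arrays was most like that of the embryonic globins were found by the Euclidean distance between log2 values, each gene centred on its own mean, over 19287 genes. *Cyr61* (0.06), *Oas1f* (0.06) and *Ltbp2* (0.10) were nearest to *Hba-x*. *Ifitm2* (0.04) and *Samhd1* (0.09) were among the 3 nearest to *Hbb-y*, and *Tnpo2* (0.09) and *Hand2* (0.11) among those of *Hbb-bh1*. For *Hba-x*, *Hbb-y* came at place 57 (0.39) and *Hbb-bh1* at place 6165 (1.39). The distances rest on 4 points per gene and are a description.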

How the data were processed

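Liver RNA of 4 samples was measured, 1 array per group. Spot intensities on a linear scale were deposited by the authors as processed signals of Agilent Feature Extraction (version 10.7.3.1 per the file headers), with a background surface subtracted and the rest divided by a detrending ratio that the authors deposited beside them. No normalization between arrays had been applied, and the deposited value table equalled the processed signal in all 62976 spots (tolerance 0.001). Of 59305 non-control spots, 56.1% to 65.3% were well above background.

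Here, the log2 signal minus the 75th percentile of each array was used. The 1754 spots that the software had marked as outliers on at least 1 array were not used, none of them of a globin probe. Fold changes were counted past 1.5-fold where at least 1 array of a pair was well above background. Against an array not well above background, differences were taken from a limit (log2 −5.48 on CF, −6.03 on MF, −4.69 on CM and −5.83 on MM) and are lower bounds. A pair whose dimmer array was saturated, or whose bound had the wrong sign, was given no fold. Lists took the brightest probe of each gene.

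limma 3.58.1 (R 4.3.3) was fitted to all 4 arrays with Benjamini-Hochberg adjustment over 25045 probes well above background on all of them, after being tested on simulated data. Tables were handled with Python 3.11.15, pandas 2.3.3 and numpy 2.4.6.

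Named genes were all members, *Ahsp*, *Alas2*, *Klf1*, *Gata1*, *Bcl11a*, *Sox6*, *Slc4a1*, *Alb*, *Afp*, and list genes past 1.5-fold the same way in both genders; 1 gene of this rule is not reported here. Others in the text were picked after their values were seen. The members and lists were chosen with earlier results of these data known. The comparisons of males with females, and the alternatives without detrending and with GC or position trends removed, were added after seeing the data. The array annotation gave the probe positions (mm9); promoter windows are from RefSeq (GRCm38.p6), which held windows for 6 globin genes under current names.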

Additional observations from a re-analysis of the deposited data

Results flagged for a closer look

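Each side had 1 array, and the difference between the genders was not tested. The M minus C difference pointed in opposite directions in females and males for *Hba-x*, *Hbb-bh1*, both *Hbb-y* probes and *Hbb-b2*. On the log2 scale it was 0.42 in females and -0.79 in males (males less females -1.22) for *Hba-x*, -0.76 in females and 0.54 in males (1.30) for *Hbb-bh1*, 0.36 in females and -0.31 in males (-0.68) for the *Hbb-y* probe A_55_P1967478, and 0.50 in females and -0.54 in males (-1.04) for the *Hbb-y* probe A_55_P1967481. For *Hbb-b2* it was 0.10 in females, where MF was saturated and the value is a lower bound, and -1.31 in males (-1.41). The saturated MF spots of *Hba-a1*, *Hba-a2* and *Hbb-b1* gave no direction in females. The male signs of *Hba-x* and both *Hbb-y* probes changed in some ways of processing, as did the female sign of *Hbb-b2*. The share of all probes with opposite signs was not counted.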

How the results depend on the processing

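No paired analysis was possible because each group had 1 array. The M minus C signs of the embryonic probes in females, and their CM minus CF signs, were the same in all 9 ways of processing. The male M minus C values were not: under normexp with quantile normalization, without scaling, and before detrending, MM minus CM was 0.22 (reversed), −0.23 and −0.14 for *Hba-x*, 1.23, 1.10 and 1.20 for *Hbb-bh1*, 0.71, 0.25 and 0.74 for the *Hbb-y* probe A_55_P1967478, and 0.17, 0.0201 and −0.0341 for A_55_P1967481. *Hbb-b2* reversed in CM minus CF under normexp (−0.16) and before detrending (−0.0506), and in MM minus MF under quantile normalization (0.25). The median of all probes moved by 0.40 (log2) in MF minus CF and 0.56 in MM minus CM without scaling, and by at most 0.31 in these comparisons in the other settings. In CM minus CF it moved by −0.42 and in MM minus MF by −0.28 with median centring. Globin probes past 1.5-fold in MF vs CF numbered 2 with median centring, 3 without scaling, 2 with a GC trend and 2 with a position trend removed, and 0 past 2-fold (1 as reported). In MM vs CM there were 6 before detrending and 1 past 2-fold (3 as reported). The embryonic minus adult gap in females was 0.34 under normexp and 0.29 before detrending, with the saturated MF values of the adult probes entered as measured. In males it was −0.36 under quantile normalization, 0.82 under normexp and 1.51 before detrending. With limma, 13 of all probes passed for M vs C with median centring, 36 without scaling and 14 before detrending (0 as reported). No globin probe passed for either term in any setting, with the adult probes entered at their saturated MF values. The lowest limma adjusted p of a globin probe was 0.0988, for male vs female with median centring (*Hbb-y*, A_55_P1967481). *Alas2* and *Slc4a1* turned in MF vs CF under quantile normalization (−0.0999) and normexp (−0.32). The causes were not tested. Leaving out saturated probes, which would remove every adult probe, and probes matching several members were not run.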
